A study of Mus musculus with 2 samples.

Results

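Described here are 35 genes, chosen by name, that serve the uptake and mitochondrial oxidation of fatty acids, that PPAR receptors are known to control, or that encode those receptors and their coactivators. A gene was measured where the platform's annotation pairs a probe with its symbol, which held for 32 of the 35, out of 18498 genes compared on the arrays. Cpt1b, Acsl1 and Ucp2 were not analysed here. All 32 measured genes lay above background on both arrays, so the filter on dim genes removed none of them.

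The arrays held RNA from the gastrocnemius, a calf muscle, of female mice aged 10 weeks, 1 sample of each group, and the labels do not say how many mice a sample holds. The control was wild type:R26-DTA, from littermates, and the other sample, called depleted, was Pdgfra-CreER:R26-DTA. Both carried the R26-DTA allele, from which Cre recombinase releases diphtheria toxin A, and both received tamoxifen into the peritoneum from 9 weeks of age on 5 days, with the muscle taken 2 days after the last dose. CreER, which tamoxifen activates, is driven by the Pdgfra promoter and can act in any cell where that promoter is active. By its label the control lacked CreER, so its presence and cell loss cannot be told apart. The study asked which genes differ in muscle depleted of PDGFRα-positive mesenchymal progenitors. With 1 array in each group there is no replicate, no error between animals and no test, and a difference between these arrays may also be one between individual mice. In whole muscle, fewer cells of a type and less RNA per cell cannot be told apart.

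Fatty acids reach a muscle fibre from circulating lipoproteins and from its own lipid droplets, are activated to acyl-CoA, cross the inner mitochondrial membrane bound to carnitine, and are shortened by a cycle of dehydrogenation, hydration, dehydrogenation and thiolysis. PPAR receptors are nuclear receptors that bind fatty acids and, with an RXR partner, switch on many genes of this route, and the coactivators encoded by Ppargc1a and Ppargc1b strengthen this and drive mitochondrial biogenesis. Oxidative fibres depend on this route more than fast glycolytic fibres, and fasting raises the expression of many of its genes in muscle.

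Most of these genes differed little between the arrays, and 6 of the 32 passed 1.5-fold. Of all genes compared, 1.96% passed it on the higher side and 1.52% on the lower side. The receptor gene Ppara, the coactivator genes Ppargc1a and Ppargc1b and the uncoupling protein gene Ucp3 were at least 1.5-fold lower in depleted muscle, although Ppargc1b was at -0.49 with scaling to the median and Ppara at -0.31 with the local background subtracted. The triglyceride lipase gene Pnpla2 and the thioesterase gene Acot1 were at least 2-fold higher, with Acot1 at 0.40 once the local background was subtracted. None of the 18 measured genes of the carnitine shuttle, the oxidation cycle and its electron transfer step differed by 1.5-fold in this setting, though Acadvl, Echs1 and Eci2 were past it on the higher side with scaling to the median. Values are given as the authors' processed intensities, a linear scale with a median of 25 on each array, and as log2 ratios of depleted over control after background correction and quantile normalization, where 0.58 stands for 1.5-fold. Intensities of different probes are not comparable with each other.

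**Figure D1:**
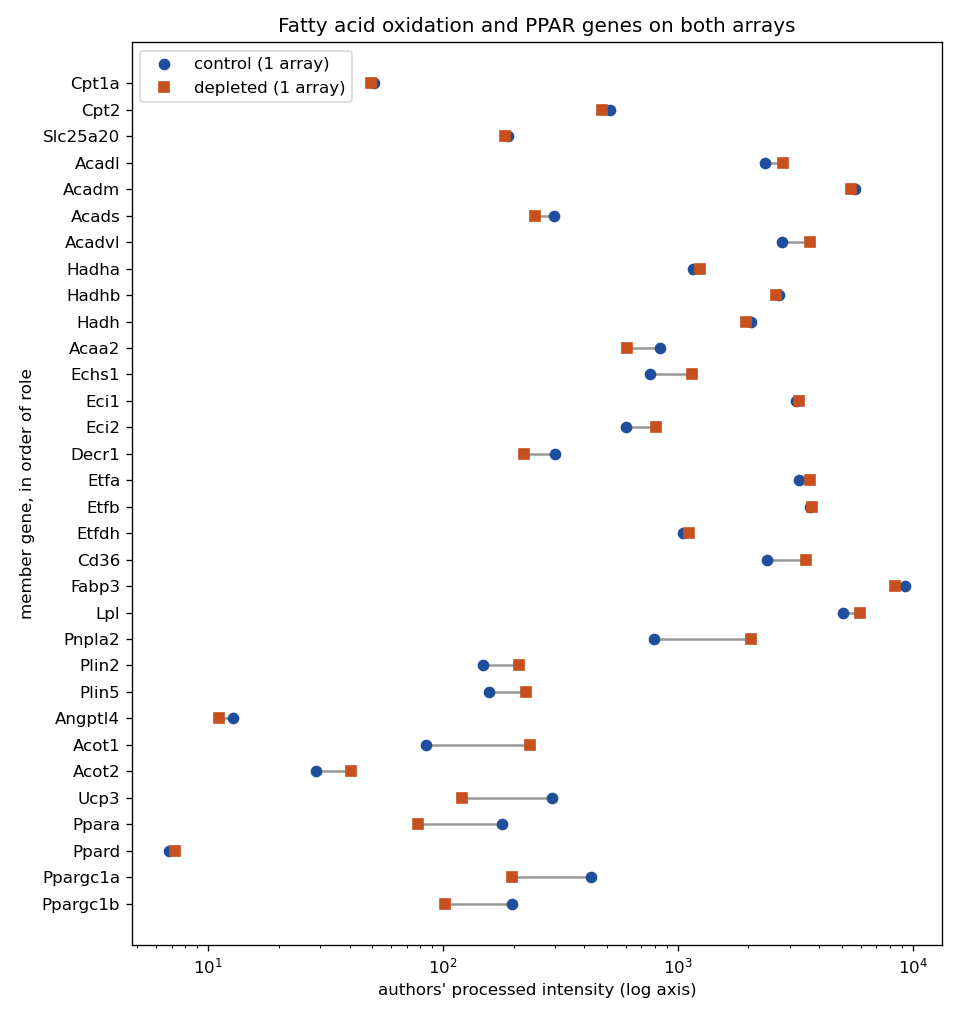
Authors' processed intensity (log axis) of the 32 measured genes in control muscle (circle) and depleted muscle (square), 1 array each, in order of role; lines join the values of a gene. Pnpla2 (788.5 to 2050.5) and Acot1 (84.3 to 234.5) moved right and Ucp3, Ppara, Ppargc1a and Ppargc1b moved left, while most enzymes of the cycle overlapped or nearly did.

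Of the 32 genes, 2 passed 1.5-fold on the higher side and 4 on the lower side, 6.25% and 12.5% of them, against 1.96% and 1.52% of all 18498 genes compared. Ratios of dim genes are drawn toward 0 by the background correction, and among the 10185 genes at or above the median intensity the shares were 3.56% higher and 2.77% lower. The genes were chosen with earlier results of these data known, so their shares are descriptions alone. At 2-fold, 2 of the 32 genes were higher and 0 lower, against 0.492% and 0.427% of all genes. That 0 depends on the background correction: in the authors' processed values Ucp3 (-1.26), Ppara (-1.19) and Ppargc1a (-1.11) were more than 2-fold lower, and so they were with an offset of 16 (-1.15, -1.03 and -1.07) and with the blank spots subtracted (-1.27, -1.21 and -1.15). The median log2 ratio was 0.01 over the 32 genes and 0.00 over all genes, and the ratios ranged from -0.97 for Ucp3 to 1.30 for Pnpla2. In total 17 genes had a ratio above 0 and 15 below.

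**Figure D2:**
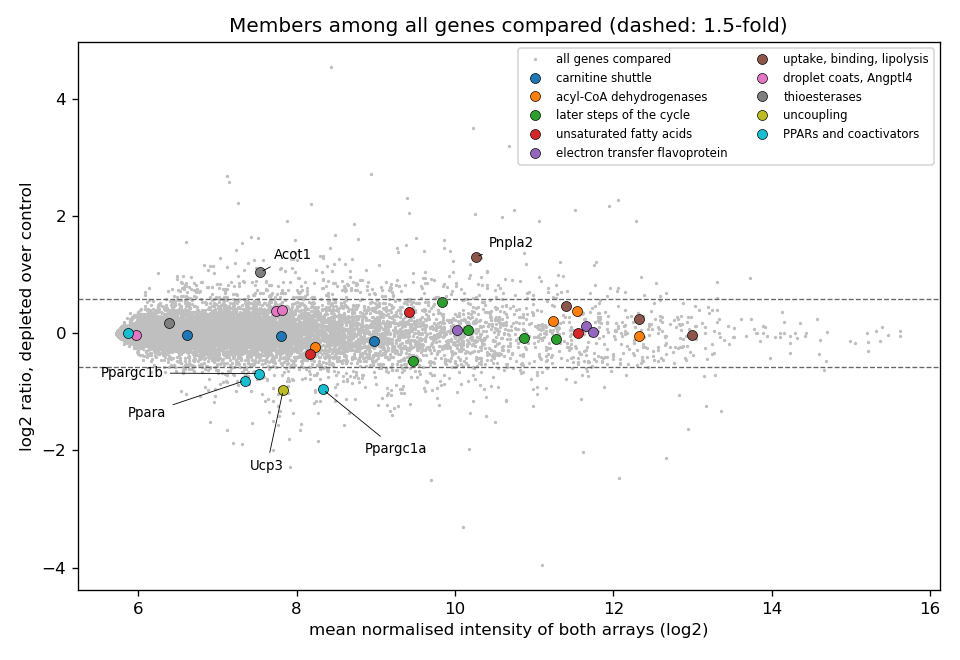
Log2 ratio of depleted over control against the mean normalised log2 intensity of both arrays for all 18498 genes (grey) and the 32 genes coloured by role, with dashed lines at 1.5-fold. Only the 6 labelled genes lie outside the dashed lines, Pnpla2 (1.30) and Acot1 (1.04) above and Ucp3 (-0.97), Ppargc1a (-0.96), Ppara (-0.81) and Ppargc1b (-0.69) below.

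The counts depended on how the arrays were brought to a common scale. The quantile setting gave 2 higher and 4 lower genes, and scaling each array to its median gave 8 and 3, against 4.84% and 0.676% of all genes. Under that scaling the genes at or above the median intensity had a median ratio of 0.13, and the 32 genes one of 0.26. The genes that scaling to the median added were Acadvl, Echs1, Eci2, Cd36, Plin2 and Plin5, and Ppargc1b dropped to -0.49. The authors' processed values gave 3 higher genes, with Echs1 added, and the same 4 lower genes, against 9.34% and 7.21% of all genes, and the sign of all 32 ratios was that of the quantile setting. Both rest on the same spots, so this is no second measurement.

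Pdgfra, whose promoter drives CreER and which marks the cells to be depleted, read 273.1 in control and 116.6 in depleted muscle, a log2 ratio of -0.94, and all 9 markers of mesenchymal progenitors had ratios below 0. The 7 skeletal muscle fibre markers, among them Ckm and Acta1, were above background on both arrays. Their median ratio was -0.05 with 0 past 1.5-fold after quantile normalization, -0.53 with 3 lower after cyclic loess, and -0.40 with 1 lower in the authors' processed values. In the processed values 7.21% of all genes were lower, and for cyclic loess that share is not given here.

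The carnitine shuttle moves activated fatty acids into the mitochondrion. Cpt1a, the form of the rate-limiting outer membrane transferase that is dominant in liver, read 51 in control and 49.4 in depleted muscle. Slc25a20, the carrier that exchanges acylcarnitine for carnitine across the inner membrane, read 189.7 and 184.5. Cpt2, the inner transferase that returns the acyl group to CoA, read 513.1 and 475.4. The 3 ratios lay between -0.13 and -0.03, and all turned positive, at 0.07 to 0.18, with scaling to the median, so the shuttle genes have no direction here. The muscle form of the outer transferase, Cpt1b, is among the genes not analysed here.

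The acyl-CoA dehydrogenases open each turn of the cycle, and each prefers a chain length. Acadvl, the enzyme of very long chains, read 2769.3 in control and 3668.2 in depleted muscle, with a ratio of 0.38. Acadl, for long chains, read 2349.1 and 2807.4, with a ratio of 0.21. Acadm, for medium chains, read 5711.4 and 5488.5, and Acads, for short chains, 298.4 and 246.3. The ratios of the latter were -0.05 and -0.24. In this setting the long-chain enzymes were thus the higher ones and the short-chain enzyme the lower one, all within 1.5-fold. With scaling to the median Acadm (0.25) and Acads (0.01) turned positive and Acadvl (0.70) passed 1.5-fold. That scaling shifts an array by a constant, so it says little about the order of the ratios. With the local background subtracted the order changed, and all were negative: Acadvl -0.5, Acadl -8.67, Acadm -0.28 and Acads -2.01.

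The remaining steps of the cycle were divided in direction. Echs1, the hydratase of short chains, read 762.7 in control and 1153.8 in depleted muscle, a ratio of 0.54 that fell just short of 1.5-fold. Acaa2, the thiolase that releases acetyl-CoA, read 838.6 and 606.9, a ratio of -0.47. Hadh, the hydroxyacyl-CoA dehydrogenase of shorter chains, read 2047.2 and 1944.6. Among these enzymes, the hydratase and the thiolase thus lay on opposite sides of 0, and did so with scaling to the median as well (0.85 and -0.15), whereas Hadh moved from -0.08 to 0.23.

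Hadha and Hadhb encode the subunits of the mitochondrial trifunctional protein, which carries out the last 3 reactions on long chains. Hadha read 1166.1 in control and 1245.1 in depleted muscle, and Hadhb 2684.4 and 2611.8. Their ratios of 0.06 and -0.10 were close to 0, and were 0.38 and 0.27 with scaling to the median. In RefSeq's GRCm38.p6 annotation the genes lie head to head on chromosome 5, with start sites at 30154980 on the minus strand and 30155253 on the plus strand, 273 bases apart, so their upstream windows overlap.

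Unsaturated fatty acids need auxiliary enzymes that move or remove their double bonds. Eci2, an enoyl-CoA isomerase, read 600.7 in control and 804.6 in depleted muscle, a ratio of 0.36, while the related Eci1 read 3183.6 and 3293, a ratio of 0.01. Decr1, the dienoyl-CoA reductase, read 299.5 and 221.7, a ratio of -0.36. The electron transfer flavoprotein passes electrons from the dehydrogenases to the respiratory chain. Its subunits Etfa and Etfb and its oxidoreductase Etfdh had ratios of 0.12, 0.02 and 0.06. Etfa read 3269.4 in control and 3656.3 in depleted muscle, Etfb 3638.7 and 3740.2, and Etfdh 1047.8 and 1120.8. These genes barely differed between the arrays, and were at 0.46, 0.35 and 0.38 with scaling to the median.

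**Figure D3:**
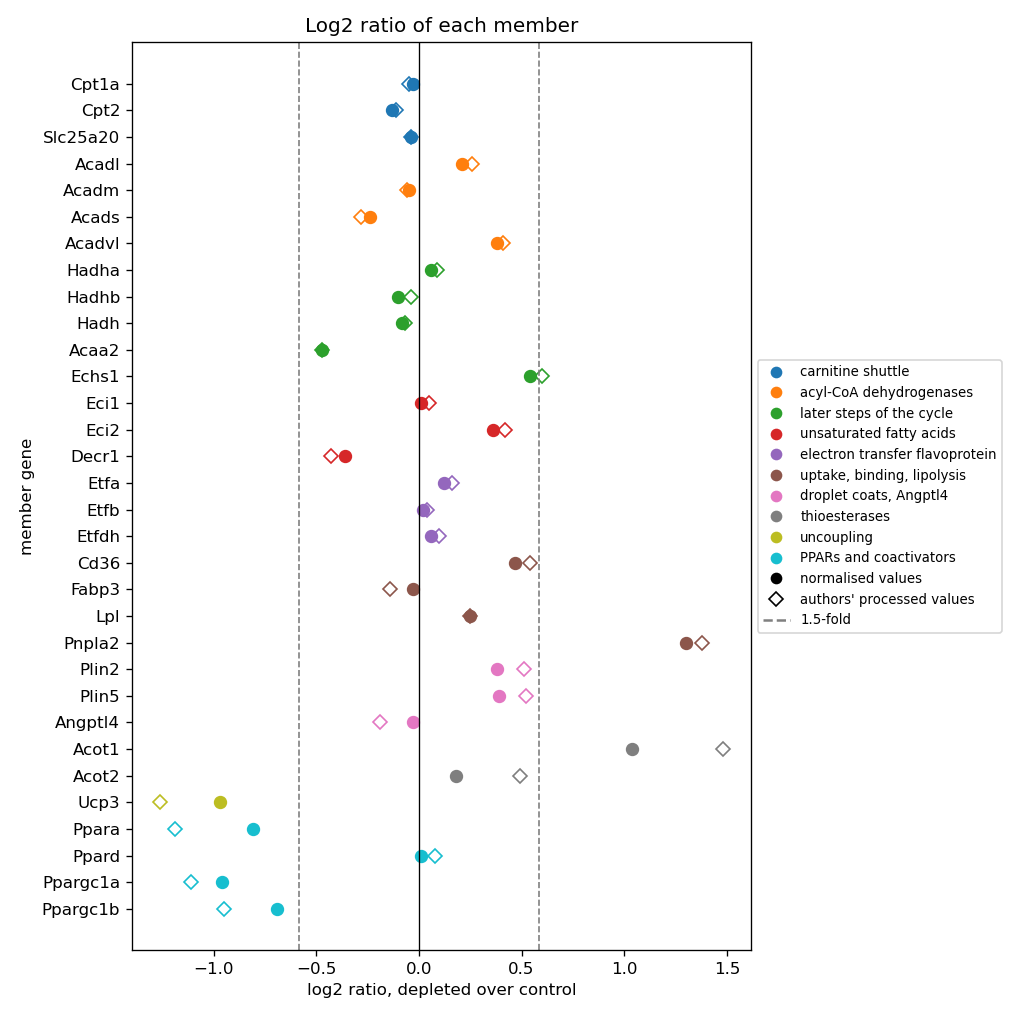
Log2 ratio of depleted over control for the 32 measured genes, coloured by role, from normalised values (filled circles) and from the authors' processed values (open diamonds), 1 array per group, with dashed lines at 1.5-fold. The enzymes of the shuttle, the cycle and electron transfer lie between -0.47 and 0.54 in the normalised values, and the lowest values belong to Ucp3 and 3 of the 4 regulators.

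Of the 4 measured genes for uptake, binding and lipolysis, 1 was at least 1.5-fold higher in depleted muscle, against 1.96% of all genes. That gene, Pnpla2, encodes the lipase that takes the first fatty acid from triglyceride in lipid droplets. The median of its spot was 655.8 for control and 2221.8 for depleted muscle, and its processed intensity 788.5 and 2050.5. It was 2.46-fold higher, with a ratio of 1.30, the highest of the 32 genes. It stayed at least 1.5-fold higher under all 10 alternatives, some of which cannot change its ratio. Its ratio ranged from 1.29 to 1.61 without the local background alternative.

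The other genes of uptake and binding moved less. Cd36, the fatty acid translocase of the cell surface, read 2407.9 in control and 3512.1 in depleted muscle, a ratio of 0.47. Lpl, the lipase that frees fatty acids from circulating lipoproteins, read 5044.1 and 5993.4, a ratio of 0.25. Fabp3, the fatty acid binding protein of heart and muscle, read 9297.1 and 8426.1, a ratio of -0.03. With scaling to the median Cd36 passed 1.5-fold at 0.84, Lpl was at 0.55, and Fabp3 turned positive at 0.17. Of 9 further genes for uptake and activation outside the 32, 7 were below 0 and 0 passed 1.5-fold, with a median of -0.05.

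Perilipins coat lipid droplets and govern access of lipases to them. Plin2 read 147.7 in control and 211 in depleted muscle, and Plin5, which links droplets to mitochondria in oxidative tissue, 157.6 and 225.9. Their ratios of 0.38 and 0.39 were nearly equal and below 1.5-fold, and passed it at 0.60 and 0.61 with scaling to the median. Plin3, a more widely expressed relative outside the 32 genes, read 654.5 and 994.5, a ratio of 0.54. Angptl4, a secreted inhibitor of lipoprotein lipase and a well-known PPAR target, read 12.7 and 11.1, with a ratio of -0.03. Its spots of 46.2 and 48.8 stood little above the background limits of 37.4 and 38.5, so its ratio says little.

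Acyl-CoA thioesterases release free fatty acid from acyl-CoA. Acot1, the cytosolic form, had spot medians of 102.5 in control and 286.8 in depleted muscle, and processed intensities of 84.3 and 234.5. It was 2.05-fold higher, with a ratio of 1.04. Acot2, the mitochondrial form, read 28.8 and 40.4, a ratio of 0.18. In RefSeq's GRCm38.p6 annotation both lie on chromosome 12 on the plus strand, with start sites 21641 bases apart at 83987861 for Acot2 and 84009502 for Acot1. The genes are close copies, so a probe may take up RNA of both and the level of each is uncertain. The measured difference was larger for Acot1, also in the authors' processed values (1.48, against 0.49 for Acot2). With the local background subtracted it was smaller (0.40, against 0.71 for Acot2). Acot4, a peroxisomal copy of the same cluster, read 4.7 and 5.8. Its spots of 40 and 43.1 stood little above the background limits of 37.4 and 38.5.

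Ucp3 encodes the uncoupling protein of skeletal muscle, a carrier of the inner mitochondrial membrane and a known PPAR target. The median of its spot was 264.3 for control and 165.6 for depleted muscle, and its processed intensity 290.2 and 120.8. It was 1.96-fold lower, with a ratio of -0.97, the lowest of the 32 genes, and 2.4-fold lower in processed intensity. All 10 alternatives kept it at least 1.5-fold lower, though some of them cannot change its ratio.

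The regulators were lower with 1 exception, and 3 of the 4 by at least 1.5-fold, against 1.52% of all genes. Ppargc1a, the coactivator that exercise and cold induce, had spot medians of 371.8 in control and 247.2 in depleted muscle and processed intensities of 427 and 197.3, a ratio of -0.96. A dimmer probe of the same gene read 109.1 and 61.4, a ratio of -0.50, lower as well though by less than 1.5-fold. Ppargc1b, its relative, had spot medians of 191.5 and 145.8 and processed intensities of 197.6 and 102.2, a ratio of -0.69. Ppara, the PPAR of tissues with high fat oxidation, had spot medians of 175.9 and 119.9 and processed intensities of 177.7 and 77.9, a ratio of -0.81.

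Ppargc1a stayed at least 1.5-fold lower under all 10 alternatives, and Ppara and Ppargc1b under 9 each. Some of the alternatives cannot change these ratios, as set out in the closing section. Ppara was at -0.31 with the local background subtracted and Ppargc1b at -0.49 with scaling to the median. Ppard, the PPAR that is most abundant in muscle, read 6.8 and 7.2, and its spots of 41.6 and 44.6 were close to the background limits of 37.4 and 38.5. Nothing can be said of its direction. The median over the 4 regulators was -0.75.

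The stretches upstream of the start sites are shown for the genes that passed 1.5-fold and have an entry in RefSeq's promoter table (build GRCm38.p6). Ppargc1b is not shown. Each is the 250 bases before the start site, read 5′ to 3′ on the strand of the gene, with matches to the motifs named after them in capitals. Ppargc1a is chr5:51567726-51567975 on the minus strand, Ppara chr15:85735526-85735775, Ucp3 chr7:100472741-100472990, Pnpla2 chr7:141454938-141455187 and Acot1 chr12:84009252-84009501, the others all on the plus strand.
Ppargc1a: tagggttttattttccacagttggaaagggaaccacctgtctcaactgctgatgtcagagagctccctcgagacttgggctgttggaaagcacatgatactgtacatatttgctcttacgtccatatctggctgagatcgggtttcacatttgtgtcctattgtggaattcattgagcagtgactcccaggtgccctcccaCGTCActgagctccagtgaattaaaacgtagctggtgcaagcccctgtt
Ppara: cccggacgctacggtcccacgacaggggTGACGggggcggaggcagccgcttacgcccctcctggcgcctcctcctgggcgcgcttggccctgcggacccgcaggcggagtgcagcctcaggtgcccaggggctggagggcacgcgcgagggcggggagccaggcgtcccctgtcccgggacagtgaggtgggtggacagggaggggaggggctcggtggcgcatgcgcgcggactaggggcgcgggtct
Ucp3: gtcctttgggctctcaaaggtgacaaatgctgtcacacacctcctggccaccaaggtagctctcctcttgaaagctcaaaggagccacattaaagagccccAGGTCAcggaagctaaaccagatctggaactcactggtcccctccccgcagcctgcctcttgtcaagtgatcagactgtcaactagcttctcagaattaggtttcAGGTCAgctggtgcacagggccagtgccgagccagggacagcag
Pnpla2: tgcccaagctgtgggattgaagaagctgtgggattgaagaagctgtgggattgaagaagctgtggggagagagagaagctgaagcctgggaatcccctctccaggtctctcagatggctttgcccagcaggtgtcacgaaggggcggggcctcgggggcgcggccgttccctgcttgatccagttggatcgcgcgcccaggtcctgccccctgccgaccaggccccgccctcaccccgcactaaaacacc
Acot1: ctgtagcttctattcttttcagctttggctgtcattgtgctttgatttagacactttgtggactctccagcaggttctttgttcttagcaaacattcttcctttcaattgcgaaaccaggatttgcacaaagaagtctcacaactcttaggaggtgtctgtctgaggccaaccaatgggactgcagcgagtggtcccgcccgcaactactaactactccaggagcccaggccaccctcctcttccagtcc

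The motifs were searched on both strands of the 250-base windows. AGGTCA is the core that PPAR and other nuclear receptors recognise, and 14.0% of all 32851 windows in the table held it. Direct repeats of this core spaced by any single base are the classical PPAR response element, called DR1. Such a repeat contains AGGTCA, and 0.0335% of windows held it. TGACG is the core of the cyclic AMP response element (17.8% of windows), and GTAAACA is a FoxO site (3.17%). In the capitals, Ucp3 held AGGTCA in 2 places, from 149 and from 44 bases before its start site. Ppara held TGACG from 222 bases before its start site, and Ppargc1a held it on the opposite strand, where it reads CGTCA, from 49 bases before. Pnpla2 and Acot1 held none of the 4 motifs in this window.

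Over the 31 windows of the 29 listed genes with an entry, 8 held AGGTCA, 8 held TGACG, and 0 held the spaced repeat or the FoxO site. As only 0.0335% of all windows held the exact spaced repeat, 0 of 31 says nothing about PPAR control of these genes. Besides Ucp3, AGGTCA was found for Acadm, Acadvl, Cd36, Cpt1a, Echs1, Plin2 and Plin5. These matches are descriptions of letters and do not show binding.

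Other genes of fatty acid metabolism also differed on both sides. Of 71 listed, 65 were measured, of which 3 passed 1.5-fold on the higher side and 6 on the lower side (4.62% and 9.23%, against 1.96% and 1.52% of all genes, with a median of -0.01). The list was written with earlier results of these data known, so these shares support nothing by themselves. Pdk4, the kinase that turns off pyruvate oxidation and a PPAR target, read 596.2 in control and 2694.6 in depleted muscle, a ratio of 2.03. Lpin1, a phosphatidate phosphatase that also works with Ppara and Ppargc1a in the nucleus, read 829.7 and 1503.3, a ratio of 0.76. Mlycd, the decarboxylase that removes malonyl-CoA, the inhibitor of the carnitine shuttle, read 461.5 and 759.9, a ratio of 0.63. These were the only higher ones, and all 3 passed 1.5-fold under all 10 alternatives, some of which cannot change their ratios.

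The lower ones included partners of the genes above. G0s2, the protein inhibitor of the Pnpla2 lipase, read 373.3 in control and 112.8 in depleted muscle, a ratio of -1.36. Abhd5, the coactivator of the same lipase, read 106.9 and 106.8, and Lipe, the lipase of the next step, 91.7 and 92.2. On these arrays the lipase gene was thus higher and its inhibitor gene lower, with its coactivator at the same level.

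Rxrg, the RXR partner enriched in muscle, read 452.6 in control and 173.6 in depleted muscle, a ratio of -1.16. Nrip1, a corepressor of nuclear receptors that restrains oxidative genes, read 293.7 and 81.7, a ratio of -1.35. Esrrg, an estrogen-related receptor that works with Ppargc1a on oxidative genes, read 1635.7 and 978.9, a ratio of -0.78. Esrrg was at -0.41 with scaling to the median. These 3 came from a list of 14 measured nuclear receptors and cofactors, of which 8 were above 0 and 6 below, with a median of 0.07. The other RXR genes, Rxra and Rxrb, had ratios of 0.06 and 0.20, and Lpin1 of the same list was higher. Oxct1, which lets muscle use ketone bodies, read 2800 and 1801.7, a ratio of -0.67, and Abcd2, a peroxisomal transporter of very long chains, 192 and 101.6, a ratio of -0.66. With scaling to the median these were at -0.32 and -0.46.

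**Figure D4:**
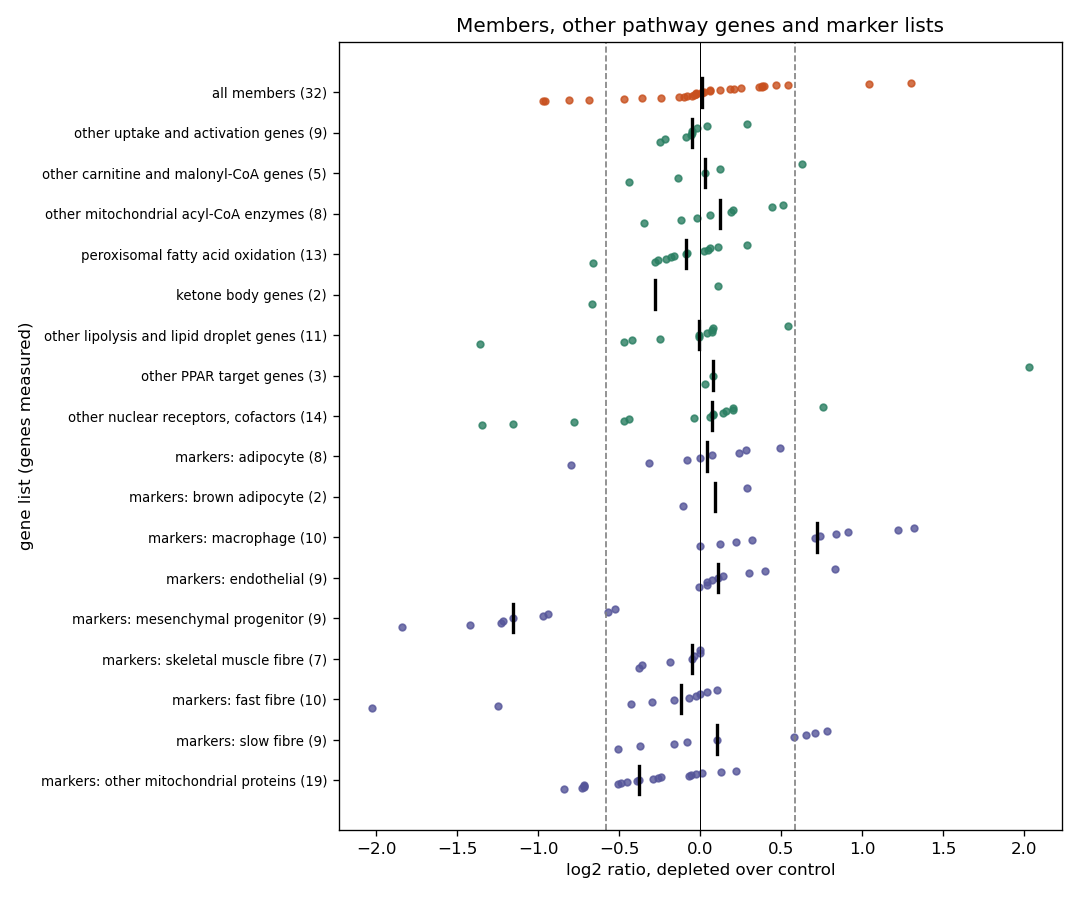
Log2 ratio of depleted over control for the 32 measured genes (orange), lists of other pathway genes (green) and marker lists (blue), 1 point per gene, with black bars at the median and dashed lines at 1.5-fold; the number of genes measured is in brackets. The 32 genes centre on 0.01, the other mitochondrial protein genes on -0.38, the macrophage markers on 0.72 and the mesenchymal progenitor markers on -1.16.

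The enzymes of fat oxidation can be set beside other proteins of the same organelle. The 18 measured enzymes of the shuttle, cycle and electron transfer had a median ratio of -0.01, with 9 below 0 and 0 past 1.5-fold. Of 19 genes for other mitochondrial proteins (citrate synthase, porins, import and respiratory chain), 16 were below 0 and 5 at least 1.5-fold lower, against 1.52% of all genes, with a median of -0.38. Cyc1 of the respiratory chain read 4109.2 in control and 2399.5 in depleted muscle, and Cs, citrate synthase, 3780.7 and 2750.2. The ratios were -0.84 and -0.49. For 4 of the 19 genes low ratios were already known when the list was written, and without them 1 of 15 was at least 1.5-fold lower and the median was -0.26, so the count of 5 supports nothing by itself. With scaling to the median 0 of the 19 genes were 1.5-fold lower and their median was -0.05. The difference between these lists cannot be tested with 1 array in each group.

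Several of the 32 genes are also made by cells other than muscle fibres: Cd36 and Lpl by fat and endothelial cells, Plin2 and Pnpla2 by fat cells and macrophages. The 10 macrophage markers had ratios from 0.00 (Csf1r) to 1.32 (Lgals3) and 6 were at least 1.5-fold higher, against 1.96% of all genes. The summed processed intensity of the 10 was 3360.7 in control and 7493.1 in depleted muscle. Lyz2 (1.22) and C1qc (0.91) were among the 6, and none of the 10 was below background. Lyz2, the brightest, alone read 1732.3 and 4337.4 of that sum. Of 8 adipocyte markers, 5 were above 0 and 1, Scd1 (-0.80), was at least 1.5-fold lower, against 1.52% of all genes. Their sum was 6126.6 and 6326.7. Most of that sum came from 1 bright probe. Pck1 was at 0.49. The adipocyte marker Lep was below background in depleted muscle, with a spot of 37.8 against the limit of 38.5. Its ratio of -0.08 says nothing of direction. Brown fat markers Ucp1 and Cidea read 18.7 and 40.2 in control and 13 and 61.7 in depleted muscle. Of 9 endothelial markers, 8 were above 0 and Cldn5 (0.83) was at least 1.5-fold higher, against 1.96% of all genes. Their sum was 1075.6 and 1448.4. Only 6 of the 9 reached the median intensity, and the sign of the dimmer ones says little. Cldn5 was at -0.16 with the local background subtracted. The part of these cells in the ratios of Cd36, Lpl, Plin2 and Pnpla2 was not tested.

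Fibre type bears on the same genes, since oxidative fibres hold more of them. Of 9 slow fibre markers, 5 were above 0 and 3, Myoz2 (0.78), Tnnt1 (0.71) and Tnnc1 (0.65), at least 1.5-fold higher, against 1.96% of all genes. The sum of the 9 was 26556.5 in control and 31119.1 in depleted muscle. Myh7, the slow myosin, was at -0.51. Of 10 fast fibre markers, 7 were below 0 and 2 at least 1.5-fold lower, Casq1 (-2.03) and Pvalb (-1.25), against 1.52% of all genes. The sum of the 10 was 349530.1 and 246770.2. The general muscle fibre markers, whose median ratio was -0.05 after quantile normalization, also had a lower sum in processed intensity, 185063.3 and 133151.8. Such sums are set by the brightest probes of a list. They also carry the slopes of the processed scale, 1.27 on the control and 0.939 on the depleted array. The median ratios of the slow and fast lists were 0.10 and -0.12, and 0.43 and -0.16 with scaling to the median. After cyclic loess the slow median was 0.07, and the fast median -0.60 with 6 of the 10 genes at least 1.5-fold lower; in the authors' processed values these were 0.12, and -0.47 with 4 lower. Myoz2 (-7.96) and Pvalb (8.99) changed sign once the local background was subtracted. Their part in the ratios of the 32 genes was not tested.

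**Figure D5:**
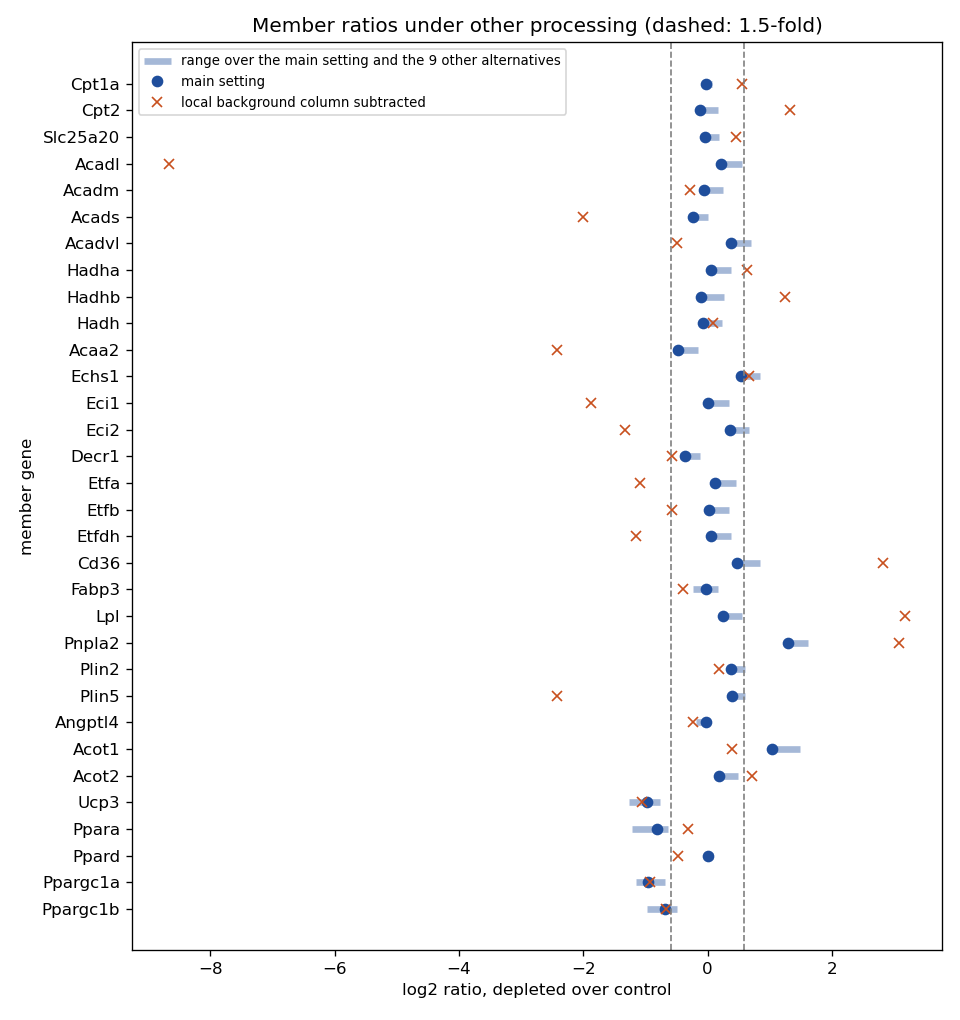
Log2 ratio of depleted over control for each of the 32 measured genes in the main setting (dots), its range over the main setting and 9 of the 10 alternatives (bars) and its value with the local background column subtracted (crosses), with dashed lines at 1.5-fold. Pnpla2, Ucp3 and Ppargc1a lie outside the dashed lines in every setting, whereas the crosses scatter widely, down to -8.67 for Acadl.

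Subtracting the local background column gave another picture, with 8 of the 32 genes higher by 1.5-fold or more and 11 lower, against 21.5% and 19.6% of all genes. That column follows the signal of the spot itself, with a Spearman correlation across probes of 0.941 for the control array and 0.972 for the other. For Acadl on the depleted array it was 3128.8 against a spot of 3028.2, so nothing was left after subtraction. Ppara (-0.31) and Acot1 (0.40) were then within 1.5-fold.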

How the data were processed

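Spot intensities of 2 single-colour (Cy5) arrays were used as deposited: linear medians of the spot pixels (635 nm channel), combined by the scanner software over 3 gains, per the file headers. The authors also deposited processed intensities, whose making is not given in the sources used here; on each array they are a straight line of the spot intensity, reaching 0 at 36.2 on the control array (slope 1.27) and at 37 on the depleted array (slope 0.939), so their scale and direction are known. Both columns have a median of 25.

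Spots were corrected with normexp (offset 50, limma 3.58.1, R 4.3.3), converted to log2 and quantile-normalized across 23473 probes, and a gene was represented by its brightest probe. A probe was above background if it exceeded the mean of 2736 blank spots by 2 SD, at 37.4 on the control and 38.5 on the depleted array; genes above it on at least 1 array were compared, and a value below it was raised to the lowest value above it. Of the probes, 20690 had 1 gene symbol, 2783 none. The symbols of the 32 measured genes all matched RefSeq by Entrez identifier. With 1 array per group no test was made, and the number of arrays limits precision; differences were called at 1.5-fold. Named are all members, every other pathway gene past 1.5-fold, and up to 3 genes of a marker list by size of ratio; Pdgfra, Ckm, Acta1, Csf1r, Myh7, Cs, Rxra, Rxrb, Lep, Abhd5, Lipe, Plin3 and Acot4 were added after their values were seen. The members and lists were chosen with earlier results of these data known. The steps were run on data simulated from the control array, with changes of 2-fold or more planted in brighter probes. Smaller changes, dim genes and differences between mice were not simulated, so calls at 1.5-fold were not tested. The 10 alternatives are given in the closing section. Figures were drawn with matplotlib 3.10.9.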

Additional observations from a re-analysis of the deposited data

How the results depend on the processing

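No paired analysis was possible because there was 1 array in each group, and no array could be left out. Of 318 values of the 32 genes under 10 alternatives, 293 kept their direction and side of 1.5-fold where either was called, 3 came inside 1.5-fold, 14 came outside it and 8 reversed. Without the local background and median scaling alternatives, 253 of 254 stayed. These counts overstate the stability. For a gene with 1 probe, dropping the filter, keeping brighter genes alone or taking the mean of its probes cannot change the ratio. Of the 32 genes only Ppargc1a has another probe, so nearly all values under these alternatives repeat the main setting. An offset of 16, no background correction, blank subtraction, cyclic loess, no filter on dim genes, brighter genes alone (30 of the 32) and the mean of a gene's probes gave the same 2 higher and 4 lower genes. For most of these settings the share of all genes past 1.5-fold is not given here. That share can move, as in the authors' processed values (9.34% higher and 7.21% lower), so equal counts need not stand out equally. Subtraction of the local background gave 8 higher and 11 lower (median -0.35), and 17 and 16 of the other pathway genes. Scaling to the median gave 8 higher (median 0.26), and 6 higher and 3 lower pathway genes. The authors' processed values gave 6 higher pathway genes. At 2-fold 0 of the 32 genes were lower (3 in the authors' processed values), and 1 pathway gene was higher and 3 lower. With the local background subtracted, values reversed for Cpt2 (1.32), Acadl (-8.67), Hadhb (1.24), Eci1 (-1.88), Eci2 (-1.33), Etfa (-1.08), Etfdh (-1.15) and Plin5 (-2.43), and for the comparison genes Lyz2 (-7.38), Cldn5 (-0.16), Myoz2 (-7.96), Pvalb (8.99) and Plin3 (-0.59). Subtraction left no signal for Acadl on 1 array; the other causes were not tested. Signal over background limits Ppard and Angptl4 most. The alternatives for genes outside the 32, and the mitochondrial list without its 4 known genes, were chosen after the data had been seen.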
